A study of Mus musculus with 2 samples.

Results

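The genes described here are the mouse Notch receptors Notch1, Notch2 and Notch3, the Notch ligands Dll1, Dll3, Dll4, Jag1 and Jag2, and the Fringe genes Lfng and Mfng. They are 10 of the 43346 mouse genes in the tables, and were found by matching gene identifiers to these symbols. They were measured by total RNA sequencing of forebrain from B6NCrl mouse embryos at embryonic day 13.5. The embryos were of mixed sex and pooled, and each library started from 10 ng of RNA longer than 200 bases. The 2 libraries, labelled biological replicates 1 and 2, form a single group with no treatment or mutant, so levels can be described but no condition can be tested, and no p-value is given. The libraries come from separate biosample records that share a donor code. The labels do not say how the embryos were divided between them, so the spread may be in part technical. They held 35378462 estimated counts (replicate 1) and 36793284 (replicate 2), and all 10 genes had a mean estimated count of at least 100.

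Notch signalling passes between touching cells. A Delta-like or Jagged ligand on one cell binds a Notch receptor on its neighbour, pulling on the receptor lets proteases cut it, and the freed intracellular part joins the DNA-binding protein Rbpj to switch on repressor genes such as Hes5. In the embryonic forebrain this keeps radial glia, the dividing cells along the ventricle, from turning into neurons all at once. Fringe enzymes add sugar to the receptor in the Golgi and change how well it answers each ligand family.

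The tissue label was checked against markers. All 7 forebrain transcription factors listed were at 10 TPM or more in both libraries (TPM, transcript abundance corrected for length and scaled to the same total in each library). Of all protein-coding genes 38.9% were. None of 6 genes of the midbrain, hindbrain and spinal cord reached 1 TPM, and their summed TPM was 0.29 in replicate 1 and 0.17 in replicate 2. Since the tissue was sequenced in bulk, a low level from many cells and a high level from few cells cannot be told apart.

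Every member was expressed. All 10 were at 1 TPM or more in both libraries, where 59.0% of 21460 protein-coding genes were, and 6 of 10 were at 10 TPM or more, where 38.9% of those genes were. The median of the 10 mean levels was 16.7 TPM, against a median of 3.91 TPM over all protein-coding genes. The range was wide, and it ran across the roles: a Fringe gene, a ligand and a receptor took the first 3 places, and 2 ligands the last.

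**Figure D1:**
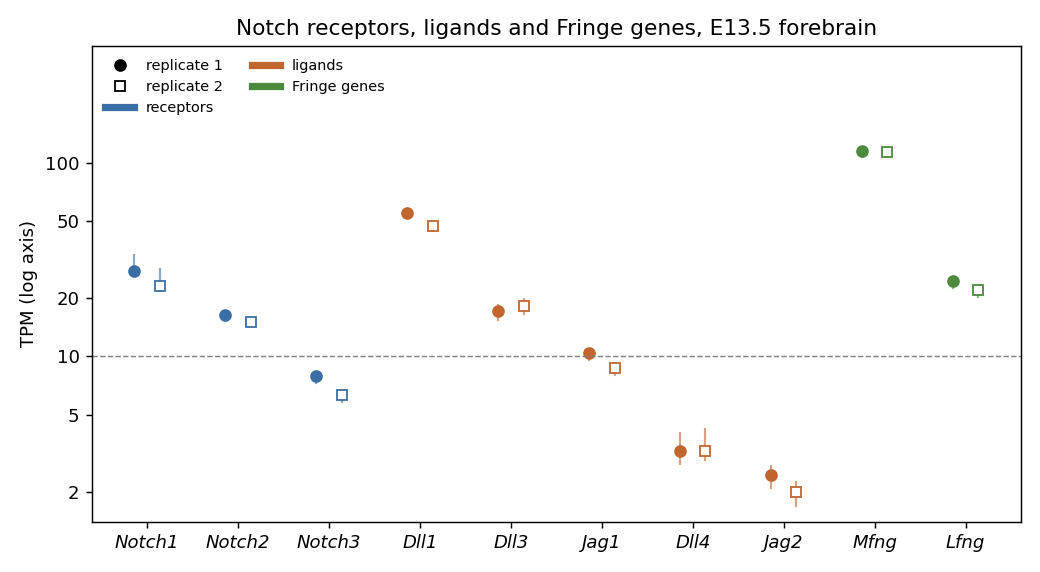
TPM of each member in replicate 1 (filled circles) and replicate 2 (open squares) on a log axis, coloured by role; the lines are the deposited intervals of TPM and the dashed line is 10 TPM. Mfng stands highest near 114 TPM, Dll1 leads the ligands near 50 TPM, Notch1 leads the receptors, and Dll4 and Jag2 lie lowest.

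The receptors were ordered Notch1, Notch2, Notch3, in both libraries. Notch1, a receptor of forebrain radial glia (chromosome 2, 26457903 to 26516663, minus strand, mm10), was at 27.6 TPM (replicate 1) and 23.1 TPM (replicate 2), a mean of 25.4 ± 3.15 TPM (SD, n = 2). Notch2, its close relative (chromosome 3, 98013527 to 98150361, plus strand), had 16.3 and 15.1 TPM in replicates 1 and 2. Notch3, which progenitors and the smooth muscle cells and pericytes of brain vessels use (chromosome 17, 32120820 to 32166852, minus strand), had 7.91 and 6.33 TPM. The ranges of the 3 receptors did not overlap: the lowest Notch1 value was above both Notch2 values, and these were above both Notch3 values. Notch1 was 1.61 ± 0.109 times Notch2, and Notch2 was 2.22 ± 0.223 times Notch3 (SD, n = 2). Of the summed receptor TPM, Notch1 held 52.6% ± 0.905, Notch2 32.7% ± 1.64 and Notch3 14.7% ± 0.737 (SD, n = 2). Notch1 was above 74.2%, Notch2 above 66.5% and Notch3 above 56.0% of protein-coding genes.

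Notch1's level carries a reservation that the other members' levels do not. Its deposited TPM lay below its own deposited interval in both libraries, which was so for 0.477% of 11953 protein-coding genes with a mean estimated count of at least 100 and for no other member. The interval ran from 28.0 to 33.2 TPM in replicate 1 and from 23.6 to 28.3 TPM in replicate 2. The posterior mean TPM, a second estimate in the same tables, was 30.5 and 25.8 TPM. By either estimate Notch1 was the highest receptor. Gm13568, a noncoding gene on the opposite strand that overlaps the 3′ end of Notch1 (chromosome 2, 26457144 to 26458316), had 257 and 237 estimated counts in replicates 1 and 2, against 5479 and 5033 for Notch1. The labels' protocols name a SMARTer low-input cDNA kit and do not state that counting was stranded, so reads of the stretch that both genes cover cannot be told apart.

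Pericyte and smooth muscle markers were present in the same tissue: 6 of 6 were at 1 TPM or more in both libraries, where 59.0% of protein-coding genes were. Cspg4 (1.65 and 1.47 TPM) and Abcc9 (1.45 and 1.26 TPM) were near that cut. The summed TPM of the 6 was 30.3 and 31.2 in replicates 1 and 2. The summed TPM of 6 radial glia markers was 2194 and 2247, most of it from Fabp7 (1190 and 1265) and Vim (772 and 746). The part of vessel cells in the Notch3 level was not tested.

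All 3 receptor promoters are rich in GC boxes, and they are shown because this is a sequence feature the receptors share. The sequences are the 250 bases before the RefSeq start on GRCm38.p6, written 5′ to 3′ on the gene's strand, with each GGGCGG (or its reverse complement) in capitals.
Notch1 promoter, chr2:26503823-26504072, minus strand: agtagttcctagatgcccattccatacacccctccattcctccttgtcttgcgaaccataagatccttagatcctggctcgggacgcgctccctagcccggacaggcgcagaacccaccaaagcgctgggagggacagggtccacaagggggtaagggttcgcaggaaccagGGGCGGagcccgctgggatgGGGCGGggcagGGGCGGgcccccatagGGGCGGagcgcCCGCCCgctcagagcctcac
Notch2 promoter, chr3:98013288-98013537, plus strand: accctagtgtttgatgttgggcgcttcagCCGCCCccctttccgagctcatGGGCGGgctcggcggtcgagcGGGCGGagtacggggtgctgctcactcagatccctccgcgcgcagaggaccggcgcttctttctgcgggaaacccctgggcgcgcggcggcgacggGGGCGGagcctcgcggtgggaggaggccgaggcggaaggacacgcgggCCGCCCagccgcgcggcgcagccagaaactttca
Notch3 promoter, chr17:32166891-32167140, minus strand: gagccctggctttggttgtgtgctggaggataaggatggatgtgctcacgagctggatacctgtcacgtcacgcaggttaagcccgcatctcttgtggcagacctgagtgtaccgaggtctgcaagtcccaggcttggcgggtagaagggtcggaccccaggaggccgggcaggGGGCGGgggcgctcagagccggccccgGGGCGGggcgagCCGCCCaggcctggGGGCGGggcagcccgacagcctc
GGGCGG, the GC box that Sp family factors bind, was found 5 times before Notch1, 5 times before Notch2 and 4 times before Notch3 on both strands together. At least 4 copies occurred in 4.09% of 32851 promoters of this length, whatever their base content, and at least 1 copy in 32.7%. The Notch1, Notch2 and Notch3 windows were 66.0%, 72.0% and 68.8% G and C. The copies to be expected from base content alone were not estimated. Jag2, with 5 copies, was the only other member with at least 4, but all 250 bases of its window lie within annotated exons of GENCODE M21. Promoters were in the RefSeq table for 9 of the 10 members. A match is a description of letters and not a bound site.

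Among the ligands Dll1 was far ahead. Dll1, the Delta ligand that newborn neurons and committed progenitors show to their neighbours (chromosome 17, 15367354 to 15376872, minus strand), had 55.0 and 47.0 TPM in replicates 1 and 2, a mean of 51.0 ± 5.70 TPM (SD, n = 2). It was above 84.9% of protein-coding genes and held 60.9% ± 2.17 of the summed ligand TPM (SD, n = 2). Dll3, a divergent Delta that in the mouse acts on Notch inside its own cell and does not activate receptors on neighbours (chromosome 7, 28293553 to 28302238, minus strand), had 17.1 and 18.3 TPM. Dll1 was thus 2.90 ± 0.456 times Dll3, and both Dll3 values lay below both Dll1 values.

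Dll4, best known from the tip cells of growing blood vessels (chromosome 2, 119325784 to 119335962, plus strand), had 3.26 TPM in each library. Dll1 was 15.6 ± 1.75 times as high. Endothelial markers were present in the tissue: 8 of 8 were at 1 TPM or more in both libraries, where 59.0% of protein-coding genes were. The summed TPM of the 8 was 153 in replicate 1 and 155 in replicate 2. Vessels are a known source of Dll4, and their part in its level was not tested.

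The Jagged ligands were lower as a class. Jag1, a ligand known from vessels and from subsets of neural progenitors (chromosome 2, 137081456 to 137116644, minus strand), had 10.4 and 8.68 TPM in replicates 1 and 2, so it crossed 10 TPM in replicate 1 alone. Jag2, its relative (chromosome 12, 112907819 to 112929776, minus strand), had 2.45 and 2.00 TPM and was the lowest member. Jag1 was 4.28 ± 0.0817 times Jag2 (SD, n = 2). The Jag2 transcript in the tables is shorter than the same transcript in the later annotation GENCODE M21 (4054 against 5106 bases), and the effect of this on its level was not tested. Choroid plexus markers were lower in replicate 2, with a summed TPM of 485 in replicate 1 and 255 in replicate 2. All 5 with a mean count of at least 100 were lower, as 76.1% of protein-coding genes at that count were. Jag1 was lower too, as 8 of the 10 members were. The part of choroid plexus in the difference of Jag1 or of the other members was not tested.

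Delta-like genes exceeded Jagged genes by a steady factor. The 3 Delta-like genes summed to 75.4 and 68.5 TPM, and the 2 Jagged genes to 12.8 and 10.7 TPM in replicates 1 and 2, a ratio of 6.15 ± 0.369 (SD, n = 2). Without Dll3, which does not signal between cells, the ratio was 4.63 ± 0.105. Ligand transcripts outnumbered receptor transcripts, with 88.2 and 79.2 TPM for the 5 ligands and 51.8 and 44.5 TPM for the 3 receptors, a ratio of 1.74 ± 0.0542. Without Dll3 the ratio was 1.37 ± 0.00243. These ratios use the deposited TPM, and the receptor sum holds Notch1, whose posterior mean TPM was higher (30.5 and 25.8 in replicates 1 and 2). The SDs do not cover this choice of estimate. These are RNA sums over the whole tissue and say nothing of the protein on any cell.

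The Fringe genes were split unevenly, with Mfng high and Lfng at the level of a receptor. Mfng, Manic fringe (chromosome 15, 78755882 to 78773475, minus strand), was at 114 TPM (replicate 1) and 113 TPM (replicate 2), the highest of all 10 members and above 93.4% of protein-coding genes. Lfng, Lunatic fringe, the family member known for the segmentation clock of the somites (chromosome 5, 140607320 to 140615545, plus strand), had 24.5 and 21.9 TPM. Mfng was 4.91 ± 0.350 times Lfng, and Lfng held 16.9% ± 1.00 of their summed TPM (SD, n = 2). By estimated counts, which do not correct for the longer Lfng transcript, Lfng held 22.2%. Rfng, Radical fringe, the remaining gene of the family, lay between them with 53.0 and 47.9 TPM in replicates 1 and 2. Of the 3 Fringe genes together Mfng held 60.7% ± 1.61, Rfng 26.9% ± 1.05 and Lfng 12.4% ± 0.555 of TPM (SD, n = 2).

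The Lfng promoter is shown because, among the 9 members in the table, it alone held GTGGGAA, a string that Rbpj is known to bind. Of its 250 bases before the RefSeq start, 21 lie within annotated exons of GENCODE M21. Capitals mark GTGGGAA (the only Rbpj string searched), the E-boxes CAGCTG and CACGTG (motifs of bHLH factors), GGGCGG and CCAAT, searched on both strands.
Lfng promoter, chr5:140607091-140607340, plus strand: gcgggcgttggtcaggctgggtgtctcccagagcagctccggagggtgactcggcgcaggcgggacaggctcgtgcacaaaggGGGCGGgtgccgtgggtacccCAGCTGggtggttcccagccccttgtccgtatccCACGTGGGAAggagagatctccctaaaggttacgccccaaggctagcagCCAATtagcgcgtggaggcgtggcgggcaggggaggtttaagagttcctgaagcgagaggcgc
GTGGGAA lies at -109 to -103 from the start and overlaps the CACGTG at -112 to -107, which gives the run of 10 capitals. GTGGGAA occurred in 5.42% of all promoters of this length, CAGCTG in 13.0%, CACGTG in 6.02% and CCAAT in 33.8%. CAGCTG was also found before Dll1 (at the upstream of its 2 starts), Dll3 and Jag1, and CCAAT before Dll1 (at the downstream start), Dll3 and Dll4. Annotated exons cover 250 bases of the Dll3 window, 153 of the downstream Dll1 window and 124 of the Jag1 window. The absence of a motif from these windows says only that the letters are not there.

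Placed in a single order, the members ran Mfng, Dll1, Notch1, Lfng, Dll3, Notch2, Jag1, Notch3, Dll4, Jag2, and each library alone gave this same order. Of the 9 neighbouring pairs, 8 had library ranges that did not overlap. The exception was Notch1 and Lfng, which did not differ beyond their spread in TPM. With posterior mean TPM, by which Notch1 was at 30.5 and 25.8 TPM and Lfng at 23.9 and 21.5 TPM in replicates 1 and 2, all 9 pairs were apart. By the wider deposited intervals 6 pairs stayed apart, and Dll3 with Notch2 and Jag1 with Notch3 overlapped as well. The steps were largest from Mfng to Dll1 (2.23 times), from Notch3 to Dll4 (2.18 times) and from Dll1 to Notch1 (2.01 times). The intervals cover the estimation of abundance within a library and their level is not stated.

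The depth behind these values differed with the member. Notch1 had 5479 and 5033 estimated counts in replicates 1 and 2, Mfng 3977 and 4237, Notch2 3778 and 3799, and Dll1 3631 and 3321. Jag2 had only 215 and 192 and Dll4 246 and 288, which gives a counting error of 6.82% and 7.22% for Jag2 and of 6.38% and 5.89% for Dll4, against 1.35% and 1.41% for Notch1. Notch3 (1397 and 1219), Jag1 (1253 and 1117), Lfng (1187 and 1161) and Dll3 (828 and 965) lay between. The counts of 7 of the 10 members were whole numbers to within 0.005, and those of Notch1, Notch3 and Dll1 were not, so some of their reads were divided with other features. Each of those 3 overlaps an annotated gene on the opposite strand, as Dll4 also does with Gm14207 (17.0 and 20.0 counts): for Notch3 it is Gm17276 with 11.8 and 8.75 counts, and for Dll1 A930024N18Rik with 75.8 and 62.1 counts.

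No member differed strongly between the libraries. None reached 1.5-fold in TPM, as 2.66% of 11953 protein-coding genes with a mean count of at least 100 did, and the largest difference was 1.2496-fold, for Notch3. TPM was lower in replicate 2 for 8 of the 10 members, close to the 76.1% of those genes that were. The median log2 ratio of TPM, replicate 2 over replicate 1, was -0.19 over the members and -0.11 over those genes. Notch3 (-0.32), Jag2 (-0.29), Notch1 (-0.25), Jag1 (-0.25) and Dll1 (-0.23) lay furthest down, while Dll3 was higher in replicate 2 (0.09). The deposited intervals of both libraries were apart for 4 members (Notch2, Notch3, Dll1 and Jag1), against 30.3% of those genes.

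**Figure D2:**
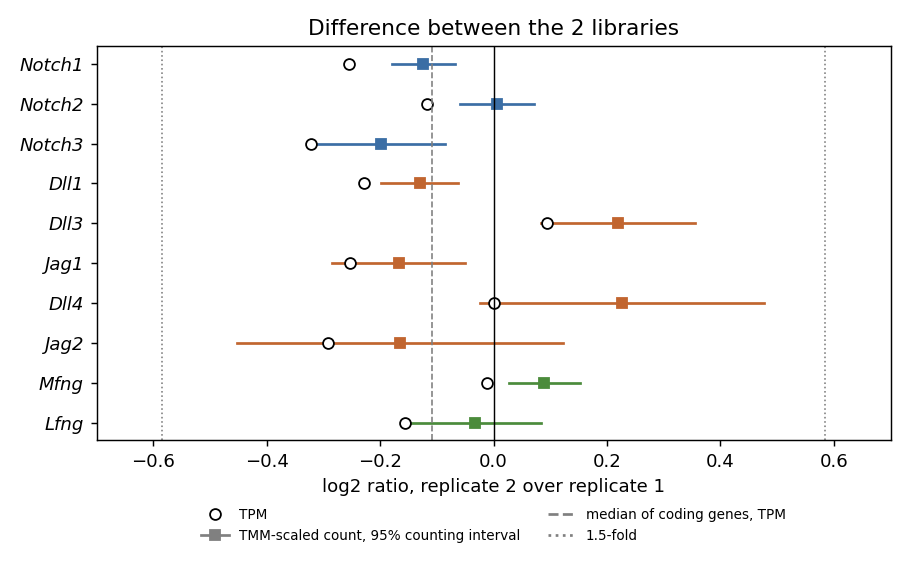
Log2 ratio of replicate 2 over replicate 1 for each member: open circles are TPM, squares are TMM-scaled counts with their 95% counting interval, the dashed line is the median of protein-coding genes by TPM and the dotted lines are 1.5-fold. No member reaches the dotted lines, Notch3, Jag1, Notch1 and Dll1 lie left of 0 with their whole interval, and Dll3 and Mfng lie right of it.

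With counts scaled by TMM, a method that centres most genes on no difference, the members fell on both sides. The median over the members was then -0.08 and over the same protein-coding genes 0.008, and 6 of 10 members were lower in replicate 2, against 47.7% of those genes. The 95% interval, which covers counting error only, left out 0 for 6 members, where it did for 41.7% of those genes. Lower in replicate 2 were Notch3 (-0.20, interval -0.31 to -0.09), Jag1 (-0.17, interval -0.28 to -0.05), Dll1 (-0.13, interval -0.20 to -0.06) and Notch1 (-0.12, interval -0.18 to -0.07). Higher were Dll3 (0.22, interval 0.08 to 0.36) and Mfng (0.09, interval 0.03 to 0.15). For Notch2, Lfng, Dll4 and Jag2 the interval held 0. From TPM to TMM-scaled counts the median of all those genes went from -0.11 to 0.008, and all 10 members moved up. Mfng went from -0.01 to 0.09, Notch2 from -0.12 to 0.006 and Dll4 from 0 to 0.23. By counts over the total count, without TMM, Notch2 was at -0.05. That total is over all features, whereas TMM was computed over mouse genes. TPM divides by length, which for Dll4 was 3490 bases in replicate 1 and 3747 in replicate 2, and for Notch2 10506 bases in both. The part of scaling and of length in these steps was not tested. Dll3 was higher in replicate 2 by TPM and by TMM-scaled counts.

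The sizes of these differences moved with other measures. Several marker lists had a positive median TMM log2 ratio of like size: 0.20 over 7 forebrain genes, 0.18 over 6 committed progenitor genes, 0.17 over 8 endothelial genes, 0.15 over 6 radial glia genes and 0.15 over the microglia genes. For pericyte and smooth muscle genes it was 0.02 and for neuronal genes -0.01, over 6 genes each, and for the choroid plexus -0.67 over the 5 genes with a mean count of at least 100. The ratio also varied with transcript length. By TPM its median was -0.08 over protein-coding genes under 2500 bases, -0.13 from 2500 to under 5000 bases and -0.15 from 5000 bases up. By TMM-scaled counts the medians of these length classes were 0.04, -0.02 and -0.04. All 4 members of at least 5000 bases (Notch1, Notch2, Notch3 and Jag1) were lower in replicate 2 by TPM, with a median of -0.25. Of the protein-coding genes of that length 82.5% were lower, and of those under 2500 bases 69.9%. The 3 members from 2500 to under 5000 bases (Dll1, Dll4 and Jag2) had a median of -0.23, close to that of the longest. The 3 under 2500 bases (Dll3, Lfng and Mfng) had a median of -0.01. Of the 7 forebrain genes, Nkx2-1, a marker of the ventral forebrain, was the 1 that differed at least 1.5-fold, with 10.5 and 18.6 TPM in replicates 1 and 2. The part of cell makeup, of ventral tissue and of length in the members' differences was not tested.

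Transcript by transcript, each of the 6 members with several transcripts was carried by its main protein-coding form. The tables hold 32 transcripts of the 10 genes, 9 of them without a count in either library, and 4 genes (Notch2, Notch3, Jag2 and Lfng) have a single transcript there. GENCODE M21 annotates 2, 3, 10 and 3 transcripts for these 4 genes, so their other forms could not be seen. In all 6 genes with several, the main transcript held at least 50% of the TPM in both libraries, as some transcript did in 70.0% of 8840 protein-coding genes with several transcripts and a mean count of at least 100. The main shares were 92.6% ± 0.312 for Notch1, 81.0% ± 1.26 for Dll1, 82.1% ± 0.0964 for Dll3, 95.7% ± 6.05 for Dll4, 96.7% ± 2.41 for Jag1 and 85.2% ± 0.985 for Mfng (SD, n = 2).

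The rest was mostly short noncoding forms. Dll1-204, which keeps the last intron, held 12.3% and 14.7% of the Dll1 TPM in replicates 1 and 2, from 98.4 and 109 counts. Dll3-202, likewise with its last intron kept, held 13.98% and 11.01% from 30.02 and 27.5 counts. Mfng-203, a processed transcript with another upstream exon, held 9.14% and 11.1% from 51.0 and 67.0 counts. In each case the share rested on few reads, because TPM divides by a short length. Notch1-205, a form of 4132 bases that reads from the second exon on into the second intron, held 6.31% and 6.44% of the Notch1 TPM.

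These stretches of 40 bases are shown because they are what tells the forms apart. Only reads across the junction, or beyond it in the part not shared, are particular to the short form. The estimated counts can also hold a divided part of the reads of shared exons. Each stretch is written 5′ to 3′ on the gene's minus strand from the GENCODE M21 transcripts on GRCm38. In the Dll1 and Dll3 pairs, lower case is the shared exon end, and capitals are the next exon (the main form) or the retained intron (the short form). In the Mfng pair, capitals are the exon upstream of the junction and lower case is the shared exon.
Dll1-201: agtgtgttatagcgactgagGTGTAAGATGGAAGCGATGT
Dll1-204: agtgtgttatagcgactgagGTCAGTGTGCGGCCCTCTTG
Dll3-201: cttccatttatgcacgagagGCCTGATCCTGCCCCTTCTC
Dll3-202: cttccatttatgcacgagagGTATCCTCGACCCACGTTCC
Mfng-201: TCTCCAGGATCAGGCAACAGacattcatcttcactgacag
Mfng-203: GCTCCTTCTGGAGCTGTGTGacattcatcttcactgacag
The shared Dll1 stretch is chr17:15368134-15368153, followed by chr17:15368016-15368035 in Dll1-201 and by chr17:15368114-15368133 in Dll1-204. The shared Dll3 stretch is chr7:28294041-28294060, followed by chr7:28293907-28293926 in Dll3-201 and by chr7:28294021-28294040 in Dll3-202. The shared Mfng stretch is chr15:78767171-78767190, preceded by chr15:78773018-78773037 in Mfng-201 and by chr15:78770695-78770714 in Mfng-203. Both retained introns open with GT, the usual first letters of an intron.

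Set out by counts in place of TPM, the short forms shrank. Retained-intron transcripts held 14.5% and 16.4% of the Dll1 TPM in replicates 1 and 2, but 3.22% and 3.67% of its counts. For Dll3 they held 17.8% and 18.0% of TPM and 4.97% and 5.27% of counts, for Notch1 6.31% and 6.44% of TPM and 2.85% and 2.90% of counts, and for Mfng 4.98% and 4.42% of TPM and 1.95% and 1.76% of counts. Dll4 shows how few reads can matter: 3.63 counts of its processed transcript Dll4-202 in replicate 1 stood for 8.56% of the gene's TPM there, and replicate 2 had none. Dll4 had the same TPM in both libraries although its counts were 246 and 288. Reads from unspliced precursors cannot be told apart from those of a retained-intron transcript.

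**Figure D3:**
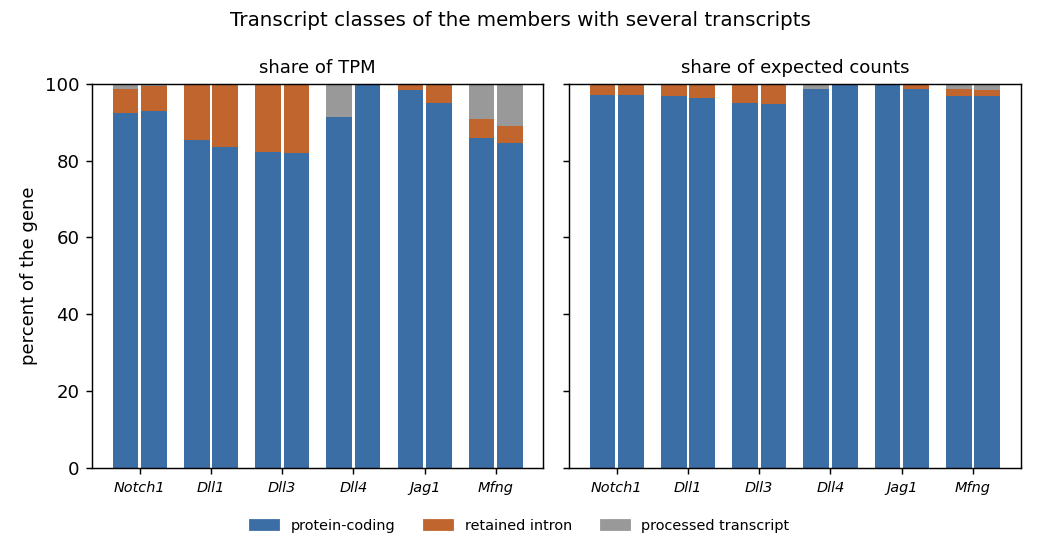
Share of each gene held by its protein-coding, retained-intron and processed transcripts, by TPM (left panel) and by estimated counts (right panel), in percent; of each pair of bars the left is replicate 1 and the right replicate 2. The noncoding forms take 14.5% to 18.0% of Dll1 and Dll3 by TPM and under 6% by counts.

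The rest of the pathway was read from a list of 53 other genes in 8 roles. Of these, 39 were at 10 TPM or more in both libraries, where 38.9% of all protein-coding genes were, and 52 at 1 TPM or more, where 59.0% were. Their median was 23.6 TPM, and Neurl1b was the gene that missed 1 TPM in replicate 2. Among receptor maturation and cleavage genes 8 of 12 reached 10 TPM. The gamma-secretase subunit gene Psenen was highest at 115 ± 6.98 TPM and Aph1c, of a subunit with near relatives that can share its reads, lowest at 1.72 ± 0.841 TPM (SD, n = 2).

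Among genes of ligand endocytosis, the step that pulls on the receptor, 5 of 7 reached 10 TPM, from the dynamin gene Dnm2 at 57.1 ± 0.389 TPM to the ubiquitin ligase gene Neurl1b at 1.195 ± 0.304 TPM. Of the genes for receptor turnover and inhibition all 9 reached 10 TPM, from Dtx3, a Deltex family gene, at 127 ± 5.10 TPM to the kinase gene Aak1 at 11.7 ± 0.615 TPM. In the nuclear complex 3 of 7 did, from the Rbpj-binding cofactor gene Snw1 at 115 ± 0.742 TPM to the coactivator gene Maml1 at 3.87 ± 0.205 TPM. All 7 corepressor genes reached 10 TPM, from Ctbp1 at 329.5 ± 17.3 TPM to Spen at 13.95 ± 0.495 TPM. The ligand-like proteins ran from Dner, a neuronal transmembrane protein, at 88.7 ± 11.1 TPM to Dlk2 at 2.29 ± 0.212 TPM.

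Of the target genes, Hes5 stood apart. Hes5, a repressor through which Notch keeps radial glia dividing, had 223 and 199 TPM in replicates 1 and 2, Hey1 42.5 and 41.6 TPM, Hes1 25.15 and 24.97 TPM, and Nrarp, a feedback inhibitor of the receptor, 25.03 and 23.07 TPM. Heyl (3.18 and 3.36 TPM) and Hey2 (3.19 and 2.12 TPM), which are best known from vessels and heart, were near the level of Dll4. Hes5 was the highest target in both libraries. Notch4, the remaining receptor gene and one known from endothelium, had 6.37 and 3.77 TPM although its counts were 218 and 222. Between the libraries, 3 of 51 pathway genes with a mean count of at least 100 (Notch4, Dlk1 and Hey2) differed at least 1.5-fold in TPM, where 2.66% of all protein-coding genes at that count did. By TPM 42 of 51 were lower in replicate 2, with a median log2 ratio of -0.13, near the 76.1% and the median of -0.11 over all those genes.

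**Figure D4:**
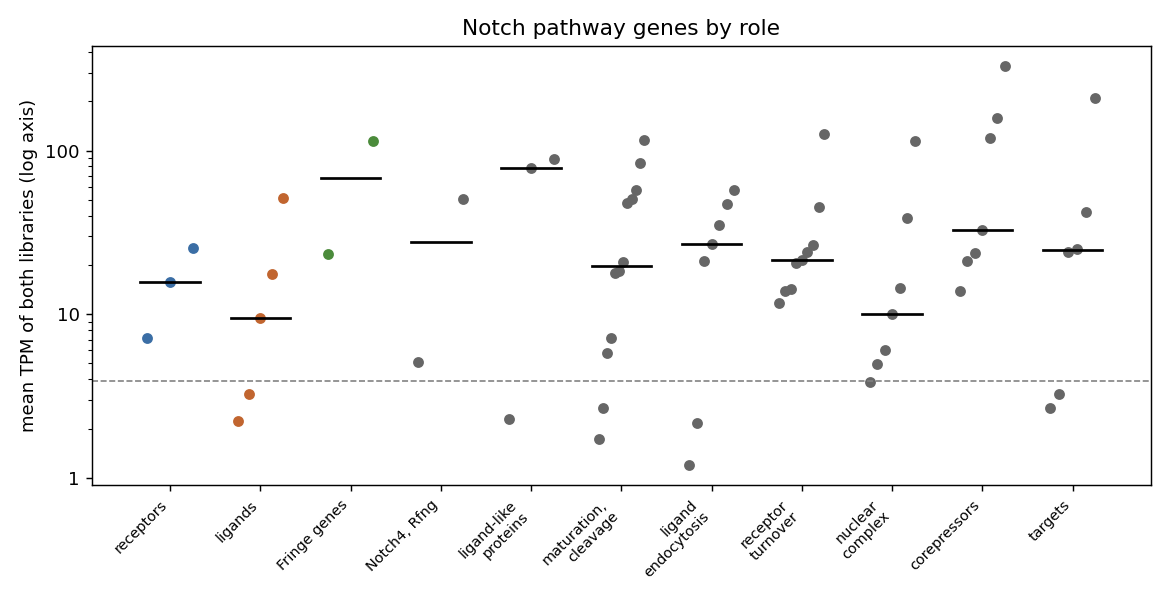
Mean TPM of both libraries on a log axis for the members (coloured) and 53 other pathway genes (grey), by role; the bars are medians of each role and the dashed line is the median of protein-coding genes, 3.91 TPM. Most genes of every role lie above the dashed line, with Ctbp1 and Hes5 the highest.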

How the data were processed

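RNA of 2 forebrain libraries was measured. The authors quantified reads aligned to transcripts of GENCODE M4 on mm10, per the metadata deposited with the files. No aligner, quantifier version, read length or strand setting is named in the labels or headers. The gene and transcript tables hold, per the file headers, deposited expected counts (estimated counts in which shared reads are divided), deposited TPM with a posterior mean, deposited FPKM, and a deposited percent column with each transcript's share of its gene. The deposited interval bounds of TPM were read as a signal with bounds of unstated level.

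Of 43346 mouse genes, 42462 matched GENCODE M21 by identifier, which gave symbols and coordinates, and 20 identifiers of repeated symbols were dropped. Scaling of the expected counts, rounded to integers, over all mouse genes was by TMM in edgeR 4.0.16 and by size factors in DESeq2 1.42.0 (R 4.3.3). Tables were handled with pandas 2.3.3 and numpy 2.4.6 under Python 3.11.15, intervals with scipy 1.17.1 and figures with matplotlib 3.10.9. Depth was 35378462 (replicate 1) and 36793284 (replicate 2). No test was run on a single group of 2 libraries, and SDs are over 2 libraries. Ratios of counts have exact 95% binomial (Clopper-Pearson) intervals, which cover counting error only. The fold rule was tested on simulated counts with counting error only, so that test does not cover the spread between real libraries.

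The members, the gene lists and the settings were chosen with earlier results of these data known. All members are named; of other pathway genes the highest and lowest of each role and every target, and of transcripts the leading 2 of each member where they bear on a result. Ncor1, Dlk1, Nkx2-1 and the overlapping noncoding genes were also singled out after their values were seen, as were the printed promoters and junctions. Alternatives tried were other estimates, scalings, denominators, thresholds and pseudocounts, and leaving out each library.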

Additional observations from a re-analysis of the deposited data

How the results depend on the processing

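Of 34 alternatives to 7 results, 30 left the value within 1.5 times (counts) or within the spread of the libraries (shares). Some of these 30 could not come out otherwise. With 2 libraries, leaving either out cannot move a share beyond their SD. The filter on mean count drops none of the 10 members, and pseudocounts only shrink a ratio. A main transcript at 50% or more in both libraries is so in each. The number of members at 10 TPM or more ranged from 4 (a threshold of 20 TPM) to 8 (5 TPM), no member reached 1.5-fold between the libraries under the scalings, estimates and pseudocounts tried, and the main transcript of each of the 6 members with several transcripts held at least 80.1% of its gene's TPM in each library (the other 4 have a single transcript in the tables, which fixes their share). The 4 values that moved beyond the spread of the libraries were shares. Notch1 held 55.8% of the receptor sum with posterior mean TPM and 50.7% with expected counts, Dll1 held 57.6% of the ligand sum and Lfng 22.2% of the Fringe sum with expected counts, which by construction leave out the correction for length. Leaving out each library gave 51.9% to 53.2% for Notch1, 59.3% to 62.4% for Dll1 and 16.2% to 17.6% for Lfng, 6 to 7 members at 10 TPM or more, and 10 main transcripts at 50% or more, 4 of them by construction. No paired analysis was possible because the libraries form a single group. Depth limits Jag2 and Dll4 most.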

Other observations

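The noncanonical ligand gene Dlk1, an imprinted gene, was at 99.6 TPM (replicate 1) and 57.3 TPM (replicate 2), a log2 ratio of -0.80, larger in size than that of any of the 10 members. In replicate 1 it was the highest of the ligand and ligand-like genes listed. Of the committed progenitor markers, Hes6 among them, 6 of 6 were at 10 TPM or more, where 38.9% of protein-coding genes were. The summed TPM of the 6 was 727 and 743 in replicates 1 and 2. The corepressor gene Ncor1 was higher in replicate 2, with 101 and 139 TPM in replicates 1 and 2.

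Gm13568, which overlaps the 3′ end of Notch1 on the opposite strand, was listed at 33.3 and 28.2 TPM in replicates 1 and 2, numerically above Notch1 itself at 27.6 and 23.1 TPM, from 257 and 237 counts. The gene 0610009E02Rik, which also overlaps this end of Notch1, was at 8.19 and 7.75 TPM. The counts of both genes were not whole, so some of their reads were divided.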
